A study of Mus musculus with 26 samples.

Results

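The nuclear genes for subunits of the mitochondrial respiratory chain and of ATP synthase were followed in preadipocytes that carried different forms of the insulin receptor (IR). Members were taken by mouse symbol, as the *Nduf* genes of complex I, *Sdha* to *Sdhd* of complex II, the *Uqcr* genes of complex III, *Cox4* to *Cox8* of complex IV, and the *Atp5* genes of ATP synthase (complex V), without symbols that end in -ps. Of 89 such genes, 80 exceeded 0.5 CPM (counts scaled to library size) in at least 4 of 26 libraries and are the members described here, out of 15402 genes that passed this filter. They comprise 38 genes by symbol in complex I, 4 in complex II, 8 in complex III, 13 in complex IV, and 17 in complex V. Among them, *Ndufb4c* in complex I and *Cox6c2* in complex IV are annotated as processed pseudogenes. Their counts were not whole in any library. The 9 genes under the filter were *Cox4i2*, *Cox6b2*, *Cox7a1*, *Cox7b2*, *Cox8b*, *Cox8c*, *Ndufa11b*, *Ndufs6b*, and a further identifier named *Atp5o*.

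The cells came from brown fat of newborn mice with floxed *Insr* and *Igf1r* and were immortalized with SV40 T antigen. Both receptors were inactivated with adenoviral Cre (DKO cells). DKO cells then received a retrovirus with empty vector or with the human B isoform of IR, the kinase-dead IR with the K1030R substitution, a receptor without its 79 C-terminal residues (∆CT), or a receptor that keeps only 36 juxtamembrane residues inside the cell (JMO). All cells were starved of serum for 6 h. DKO cells were sampled in the basal state only, and the other 4 lines also after 15 min with 100 nM insulin. Groups held 3 dishes, except insulin-treated ∆CT cells with 2. There was a single line for each receptor, so p-values measure the spread between dishes and not between independently made lines.

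Complexes I and II take electrons from NADH and succinate and pass them through ubiquinone to complex III, and cytochrome c carries them on to complex IV, where oxygen is reduced. Complexes I, III, and IV pump protons across the inner membrane, and ATP synthase lets them return while it makes ATP. Most subunits are encoded in the nucleus and imported, a small core is encoded by mitochondrial DNA, and brown fat is known for a dense respiratory chain that uncoupling protein turns to heat production once the cells have differentiated.

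Library totals ran from 17228982 to 24694828 counts, and the members took 0.584% to 0.677% of them. Reads named *Insr* were at 22.3 to 24.8 CPM in DKO libraries and at 65.5 to 99.7 CPM in the receptor lines, and *Igf1r* was at 24.7 to 28.6 and 29.7 to 35.7 CPM. Such whole-gene values include sequence outside the deleted parts, so they do not check the deletion. Mesenchymal markers were high (*Pdgfrb*, 522 to 642 CPM; *Col1a1*, 3180 to 7540 CPM), whereas the preadipocyte markers *Dlk1* and *Ebf2* stayed below 0.5 CPM in every library. The thermogenic genes *Ucp1*, *Cidea*, and *Dio2* had 1, 5, and 4 counts in all 26 libraries together, and *Myod1*, *Myf5*, and *Adgre1* had 0. Other macrophage and epithelial markers were detected at low levels, with *Cd68* at 1.51 to 3.65 CPM, *Csf1r* at 0.241 to 1.05 CPM, and *Krt8* at up to 1 CPM. The endothelial gene *Cdh5* reached 0.058 CPM and the epithelial gene *Epcam* 0.0487 CPM, whereas *Pecam1* was at 6.80 to 18.2 CPM. The label of preadipocytes thus has mesenchymal markers with it but not *Dlk1* or *Ebf2*. In these bulk libraries fewer cells of a type and less RNA per cell cannot be told apart.

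Among the basal groups, the mean level of the members was lowest in DKO and JMO cells and highest in ∆CT cells, and the differences were small. The median over the 80 genes of the log2 difference from each gene's own mean over the 26 libraries was -0.06, -0.03, and -0.09 in the DKO libraries and -0.04, -0.01, and -0.04 in basal JMO libraries. It was 0.04, 0.03, and 0.04 in basal K1030R libraries and 0.12, 0.09, and 0.05 in basal ∆CT libraries. All basal K1030R and ∆CT libraries lay above all DKO and JMO libraries. The IR group did not hold together: its basal replicates 1 and 2 were at 0.07 and 0.04, and replicate 3 was at -0.05, within the range of -0.11 to -0.01 of the insulin-treated IR libraries. Transcripts encoded by mitochondrial DNA took 3.50% of counts in this library, against 2.91% and 2.93% in IR basal replicates 1 and 2. They took 3.47% to 3.62% in the insulin-treated IR libraries. The main counts over the 80 members that use IR basal cells are therefore given with and without this library. Because the library was singled out partly by the members' own low level in it, basal counts without it are a description. They are not a separate test. Some changed calls of single genes between 2 lines are given as well. Counts by complex, promoter match, transcript length, and other gene lists are given with all libraries only. So are single genes in the contrast of several lines. The typical spread between dishes of a group was 0.0343 (SD of this median).

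**Figure D1:**
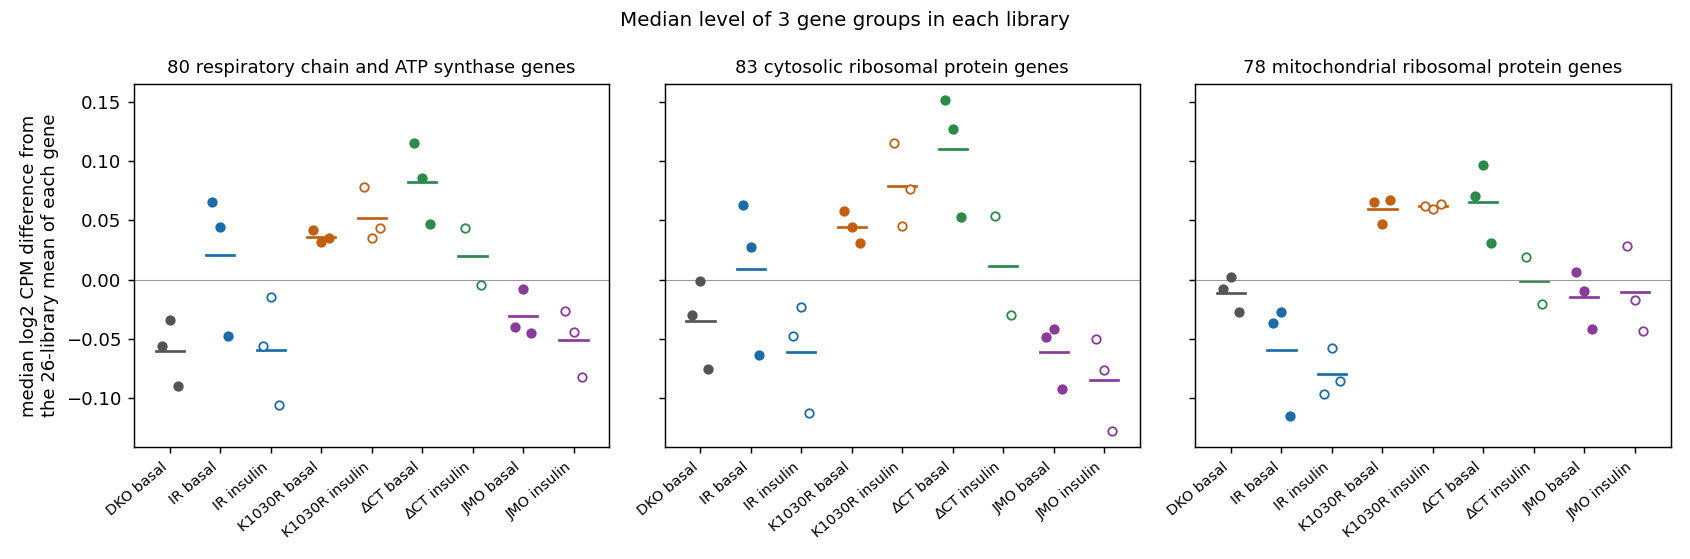
Median log2 CPM difference from each gene's mean over 26 libraries, for the 80 members, 83 cytosolic ribosomal protein genes, and 78 mitochondrial ribosomal protein genes. Each point is a library (filled, basal; open, insulin), lines are group means, and IR basal replicate 3 sits at -0.05 for the members, below the other IR basal libraries.

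Each line was compared with DKO cells in the basal state, with the quasi-likelihood test of edgeR and p-values adjusted by Benjamini-Hochberg over all 15402 genes. In ∆CT cells 49 members were higher than in DKO cells and 0 lower, where 46.4% of all tested genes were called in either direction (23.4% higher and 22.9% lower). In K1030R cells 35 were higher and 3 lower (41.6% of all genes called, 21.2% higher and 20.4% lower). In IR cells 30 were higher and 8 lower (49.8% of all genes called, 25.6% higher and 24.1% lower). In JMO cells, whose receptor lacks the kinase domain and the C-terminus, 14 were higher and 5 lower (34.2% of all genes called, 16.8% higher and 17.4% lower). Upper-quartile scaling gave 17 higher and 3 lower in JMO cells, library totals alone gave 19 higher and 9 lower in IR cells, and without DKO replicate 1 or JMO replicate 2 the JMO count was 10. The share of members called ran from 23.8% in JMO to 61.3% in ∆CT cells, and most calls were upward. The median log2 difference from DKO cells was 0.16 in ∆CT cells, 0.09 with K1030R, 0.08 with IR, and 0.01 with JMO, against 0.01 over all genes in each case. Without IR basal replicate 3, 39 members were higher and 6 lower in IR cells, with a median of 0.13.

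A contrast of the mean of the 3 lines with a full-length or nearly full-length intracellular domain (IR, K1030R, and ∆CT) against that of the DKO and JMO lines called 46 members higher and 3 lower. Of all genes, 52.3% were called, 26.7% higher and 25.6% lower. The summed level of 7 preadipocyte and mesenchymal markers, most of it *Col1a1*, moved with this contrast, at 4020 to 4640 CPM in DKO and JMO and 6560 to 8380 CPM in the other basal libraries, and its part in the members' differences was not tested. The summed level of 11 brown adipocyte markers did not follow it. It was 8.22 to 9.36 CPM in DKO, 13 to 16.2 CPM in JMO, and 9.80 to 14.0 CPM in the other basal libraries. Most of this sum was *Ppargc1a*, at 5.42 to 14.3 CPM over all libraries, and 2 of the 11 markers passed the filter. The median difference of the members was 0.09 on the log2 scale, and without IR basal replicate 3 the counts were 53 higher and 1 lower. The lower calls of *Ndufa1*, *Uqcrh*, and *Cox6b1* in this contrast thus did not all hold without that library. Scaled to library totals alone, a setting under which the median of all genes moved from 0.005 to -0.028, 36 members were higher and 7 lower. ∆CT cells had the highest basal mean of the 5 lines for 41 of the 80 members, as they did for 15.4% of all genes, and DKO cells had the lowest for 40, as they did for 28.7% of all genes. These numbers were 33 (14.6% of all genes) and 41 (27.9% of all genes) without IR basal replicate 3.

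Against DKO cells, 21 members were higher in each of IR, K1030R, and ∆CT cells, a pattern shown by 14.7% of all genes, and 0 were lower in all 3, a pattern shown by 14.3% of all genes. Without IR basal replicate 3, 26 were higher in each (14.4% of all genes) and 0 lower (13.8% of all genes). These comparisons share the DKO libraries. In 8 members every basal library of IR, K1030R, and ∆CT cells lay above every basal DKO and JMO library (among them *Atp5a1*, *Cox6a2*, *Cox7c*, and *Ndufv3*), a separation found in 7.43% of all genes. The opposite separation was found in 0 members and in 7.8% of all genes. The separation held in 16 members (8.13% of all genes) without IR basal replicate 3, and its opposite in 0 (8.22% of all genes). Of the members, 14 (17.5%) were called in none of the 11 basal comparisons, as were 24.1% of all genes, and 8 without IR basal replicate 3. The core complex I gene *Ndufs3* and the complex IV genes *Cox5a* and *Cox5b*, named here after their values were seen, were called in none in either case.

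**Figure D2:**
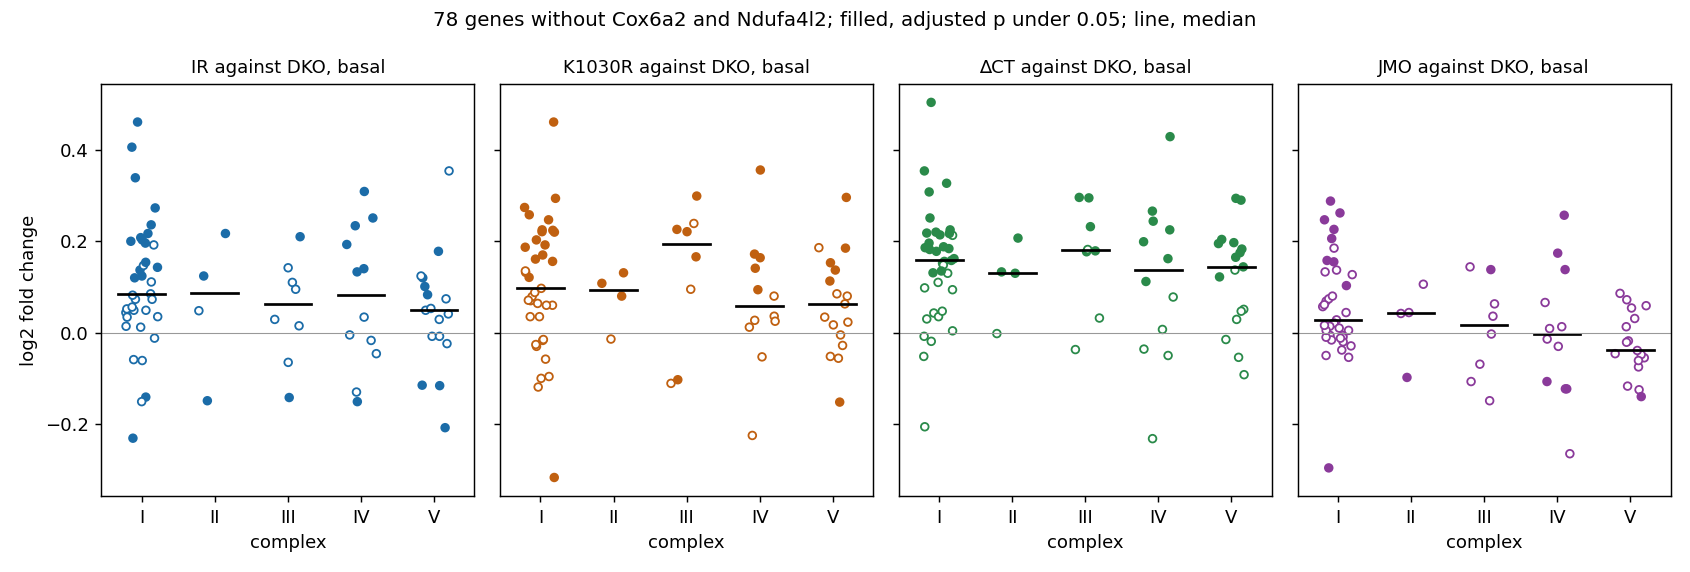
Log2 fold change against DKO cells for 78 members by complex, in basal IR, K1030R, ∆CT, and JMO cells. Points are genes, filled where adjusted p was under 0.05, and lines are medians; *Cox6a2* and *Ndufa4l2*, at up to 3.47 and 2.34, are left out. Most ∆CT points lie above 0, and JMO points lie around 0.

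Per transcript length, members of complex V were the most abundant (median 118 CPM per kilobase), followed by complex IV at 100, complex III at 66.0, complex II at 58.3, and complex I at 42.9 CPM per kilobase. *Atp5b*, the catalytic β subunit of ATP synthase, was highest at 520 CPM per kilobase, and *Ndufa4l2* lowest at 0.476 CPM per kilobase. These are means over all libraries divided by the length of an annotated transcript.

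Promoters of respiratory chain genes are known to be bound by the transcription factor NRF1, and its recognition sequence was counted in RefSeq promoter windows (GRCm38.p6) from 250 bases before to 50 bases after each start. A window was found for 63 of the 80 members, with 68 windows in all. Its letters, GCGC, then A and any base, then GCGC, read on both strands, occurred in 26.5% of the members' windows, in 9.26% of the windows of tested genes, and in 4.6% of all windows. AAGATGGCG, the core of the YY1 site, occurred in 10.3% of the members' windows and 2.78% of those of tested genes, and TCAAGGTCA, the site of estrogen-related receptors, in 2.94% and 0.269%. CCGGAAGT, the ETS site bound by GABP, occurred in 7.35% and 7.59%, and GGGCGGGG, the SP1 site, in 16.2% and 30.9%. The 200 bases before the start of 4 members, from 4 of the complexes, are printed to show how the NRF1 letters are placed, with matches in capitals and the gene's own strand read 5′ to 3′. The windows are those of *Ndufb4* (chr16:37654369-37654568, minus strand), *Sdha* (chr13:74350241-74350440, minus strand), *Cox6a1* (chr5:115348959-115349158, minus strand), and *Atp5g2* (chr15:102671048-102671247, minus strand).
Ndufb4: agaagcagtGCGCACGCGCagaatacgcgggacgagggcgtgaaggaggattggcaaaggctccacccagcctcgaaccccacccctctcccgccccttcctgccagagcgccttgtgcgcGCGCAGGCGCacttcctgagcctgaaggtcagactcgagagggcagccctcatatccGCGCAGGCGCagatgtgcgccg
Sdha: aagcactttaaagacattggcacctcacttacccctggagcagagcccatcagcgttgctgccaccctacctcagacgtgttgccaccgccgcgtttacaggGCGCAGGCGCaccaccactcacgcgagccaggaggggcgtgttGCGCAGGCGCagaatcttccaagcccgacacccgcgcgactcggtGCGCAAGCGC
Cox6a1: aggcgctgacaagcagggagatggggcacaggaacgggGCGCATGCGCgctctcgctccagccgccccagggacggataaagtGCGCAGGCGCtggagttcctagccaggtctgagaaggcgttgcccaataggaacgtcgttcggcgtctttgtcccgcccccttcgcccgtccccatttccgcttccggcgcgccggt
Atp5g2: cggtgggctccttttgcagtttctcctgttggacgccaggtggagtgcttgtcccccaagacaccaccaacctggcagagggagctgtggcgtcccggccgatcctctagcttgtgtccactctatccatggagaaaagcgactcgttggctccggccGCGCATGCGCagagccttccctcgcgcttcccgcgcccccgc

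*Ndufb4* and *Sdha* each held 3 NRF1 matches, *Cox6a1* held 2, and *Atp5g2* held 1. The match nearest to the start began 22 bases before it in *Ndufb4*, 10 in *Sdha*, 117 in *Cox6a1*, and 42 in *Atp5g2*. Among members with a window, 11 of the 17 with a match were higher in the contrast of IR, K1030R, and ∆CT with DKO and JMO cells, with a median log2 difference of 0.11, and 25 of the 46 without a match were higher, with a median of 0.08. A match of letters is a description of the window and not a measured binding site.

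In complex I, 21 of 38 members were higher and 1 was lower in the contrast of IR, K1030R, and ∆CT with DKO and JMO cells. Of the core subunits, which carry the flavin and the iron-sulfur clusters, 4 of 7 were higher and 0 lower. *Ndufs8* (ENSMUSG00000059734, chromosome 19, 3908863 to 3912774, GRCm38), an iron-sulfur subunit, was at 47.1, 49.4, and 45.2 CPM in DKO libraries. The level was 64.4, 60.1, and 62.7 CPM in IR, 65.0, 62.6, and 67.1 CPM in K1030R, and 70.9, 63.2, and 66.4 CPM in ∆CT basal libraries, and at 57.3, 60.7, and 54.7 CPM in JMO basal libraries. Every receptor library lay above every DKO library, and JMO libraries lay between, apart from 1 JMO library just above the lowest IR library. All receptor libraries, basal and insulin-treated, lay above all DKO libraries in 8 members and in 7.52% of all genes. The log2 difference from DKO cells was 0.41 ± 0.05 (SE) with IR, 0.46 ± 0.05 with K1030R, 0.50 ± 0.05 with ∆CT, and 0.29 ± 0.05 with JMO, with adjusted p of 8.62e-09, 8.6e-10, 7.2e-11, and 1.32e-05 in edgeR. *Ndufs8* was also lower in JMO than in IR cells (-0.12, adjusted p = 0.0394), a call lost without IR basal replicate 3 (-0.12, adjusted p = 0.0749).

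*Ndufv3* (ENSMUSG00000024038, chromosome 17, 31520115 to 31531331), an accessory subunit of the flavoprotein part of complex I, differed between JMO and the other receptor lines. It was at 34.2, 32.3, and 30.1 CPM in DKO and 30.2, 33.7, and 30.0 CPM in JMO basal libraries. The level was 43.3, 45.7, and 43.6 CPM in IR, 38.7, 38.4, and 39.3 CPM in K1030R, and 41.0, 39.0, and 43.1 CPM in ∆CT basal libraries. No library of the former lines overlapped with those of the latter, and the insulin-treated libraries kept this order, with 30.0 to 30.2 CPM in JMO cells and 35.8 to 45.4 CPM in the others. Such a separation over basal and insulin-treated libraries was found in 3 members and in 5.21% of all genes. *Ndufv3* rose by 0.38 ± 0.04 on the log2 scale in the contrast of IR, K1030R, and ∆CT with DKO and JMO cells (adjusted p = 1.58e-10, edgeR), and the JMO value differed from that of DKO cells by -0.04 (adjusted p = 0.679). Its counts were not whole in any library, so kallisto shared some of its reads with other transcripts.

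*Ndufb4* (ENSMUSG00000022820), a membrane-arm accessory subunit and the promoter shown with 3 matches, was at 17.1 ± 0.910 CPM (SD, n = 3) in DKO and 17.2 ± 0.811 CPM in JMO cells, and at 20.1 ± 1.42, 20.3 ± 0.597, and 19.6 ± 0.845 CPM in IR, K1030R, and ∆CT cells. Its reads could be shared with the near-identical *Ndufb4c*, and the sum of both was 42.1 ± 1.23 CPM in DKO, 43.5 ± 2.35 CPM in JMO, 47.9 ± 1.43 CPM in IR, 48.7 ± 1.25 CPM in K1030R, and 47.9 ± 2.70 CPM in ∆CT cells. *Ndufa1*, which helps to anchor the membrane arm, was the complex I member that was lower in the contrast (-0.12 ± 0.04, adjusted p = 0.0075, edgeR). It was at 18.9 ± 0.720 CPM in IR cells and 23.2 ± 0.620 CPM in JMO cells, and higher in JMO than in IR cells by 0.30 (adjusted p = 4.98e-05). *Ndufa12* went against the group: it was lower than in DKO cells in IR (-0.23), K1030R (-0.32), and JMO cells (-0.30), with adjusted p of 0.0388, 0.00813, and 0.0143 in edgeR, and at -0.21 in ∆CT cells (adjusted p = 0.0688). The *Ndufa12* difference in IR cells was -0.12 (adjusted p = 0.224), and not called, without IR basal replicate 3. *Ndufa1* and *Ndufa12* are named after their values were seen.

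Complex II, which links the tricarboxylic acid cycle to the chain, has 4 subunits, all encoded in the nucleus, and 3 were higher in the contrast of IR, K1030R, and ∆CT with DKO and JMO cells. The iron-sulfur subunit *Sdhb* was at 64.1, 62.5, and 61.8 CPM in DKO, 74.9, 74.7, and 69.2 CPM in IR, 67.6, 69.3, and 69.3 CPM in K1030R, 71.7, 71.3, and 63.3 CPM in ∆CT, and 64.0, 64.7, and 65.4 CPM in JMO basal libraries. It rose by 0.22 ± 0.04 on the log2 scale in IR against DKO cells (adjusted p = 4.59e-05, edgeR). The flavoprotein *Sdha* and the membrane anchor *Sdhc* were higher by 0.13 and 0.21 in ∆CT cells (adjusted p = 0.000568 and 0.000135). The other anchor, *Sdhd*, was lower than in DKO cells by -0.15 in IR (adjusted p = 0.000765) and by -0.10 in JMO cells (adjusted p = 0.0315), and differed by -0.01 and 0.00 in K1030R and ∆CT cells. The *Sdhd* call in JMO cells was lost with DESeq2 (adjusted p = 0.0584), without a filter (0.101), and without DKO replicate 1 or 2 or JMO replicate 2 or 3 (0.0719 to 0.139). Subunits of 1 small complex thus did not move together.

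In complex III, 5 of 8 members were higher and 1, *Uqcrh*, was lower in the same contrast. All 3 core genes were among those higher: *Uqcrfs1*, the Rieske iron-sulfur protein, by 0.26 ± 0.07 on the log2 scale (adjusted p = 0.00429, edgeR), and *Uqcrc2* by 0.15 ± 0.03 (adjusted p = 4.06e-05), with *Uqcrc1*. *Uqcrfs1* varied between dishes, at 52.4, 51.1, and 43.9 CPM in DKO, 62.3, 55.6, and 55.4 CPM in K1030R, and 52.1, 67.0, and 61.0 CPM in ∆CT basal libraries. The ∆CT and DKO groups overlapped, with a difference of 0.29 (adjusted p = 0.0322). The K1030R libraries lay above those of DKO cells, but the difference of 0.24 between K1030R and DKO cells was not past the threshold (adjusted p = 0.0919). *Uqcr10*, a small membrane subunit, was at 35.8, 37.1, and 34.0 CPM in DKO cells. It was at 37.4 CPM or more in every receptor library, a separation found in 7.52% of all genes. It rose in all 4 lines against DKO cells, by 0.21 with IR, 0.30 with K1030R, 0.30 with ∆CT, and 0.14 with JMO (adjusted p from 2.33e-05 to 0.0472). The *Uqcr10* call in JMO cells was near the threshold and was lost with RLE scaling (adjusted p = 0.058), limma voom (0.0534), DESeq2 (0.112), no filter (0.0948), and 9 of the libraries left out singly, with values down to 0.10 without DKO replicate 3 or JMO replicate 3.

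In complex IV, 8 of 13 members were higher and 1, *Cox6b1*, was lower in the same contrast. *Cox8a* (ENSMUSG00000035885, chromosome 19, 7215153 to 7217616), a small transmembrane subunit, was at 72.1, 71.2, and 74.0 CPM in DKO libraries. It was at 97.1, 89.8, and 82.1 CPM in IR, 92.3, 93.3, and 92.6 CPM in K1030R, 97.7, 95.3, and 99.7 CPM in ∆CT, and 86.7, 88.1, and 85.0 CPM in JMO basal libraries. Basal receptor libraries all lay above DKO, with JMO libraries below those of K1030R and ∆CT. The log2 difference from DKO cells was 0.43 ± 0.06 in ∆CT and 0.26 ± 0.06 in JMO cells (adjusted p = 1.65e-07 and 0.000514, edgeR). *Cox4i1*, a regulatory subunit that binds ATP, and *Cox6c* were likewise higher in all 4 lines. *Cox7c* was higher in IR, K1030R, and ∆CT cells, by 0.14, 0.16, and 0.27 (adjusted p from 7.49e-06 to 0.00985), and its difference in JMO cells was 0.01 (adjusted p = 0.861). *Cox7a2l*, a factor of supercomplex assembly, was higher than in DKO cells in IR (0.13) and K1030R cells (0.09) and lower in JMO cells (-0.11), with adjusted p of 0.00174, 0.031, and 0.0175.

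Complex IV contains subunits with muscle and heart or brown fat isoforms, and their genes were compared with the ubiquitous partners. *Cox6a2* (ENSMUSG00000030785, chromosome 7, 128205435 to 128206387), the muscle isoform of subunit VIa, had 8 counts in the 3 DKO libraries together, at 0.163, 0.171, and 0.0801 CPM. In basal cells it had 95 counts in IR (1.79, 1.41, and 1.33 CPM), 48 in K1030R (0.770, 0.856, and 0.931 CPM), 44 in ∆CT (0.806, 0.699, and 0.673 CPM), and 22 in JMO cells (0.325, 0.408, and 0.297 CPM). The groups were separate in the order DKO, JMO, then K1030R and ∆CT, then IR, and it passed the filter only through the lines in which it was higher. Its ratios and p-values are therefore given as a description and not as support for a difference. Ratios to DKO cells, with exact 95% counting intervals, were 11.7 (5.68 to 27.8) for IR, 6.52 (3.06 to 16) for K1030R, 5.55 (2.58 to 13.6) for ∆CT, and 2.60 (1.12 to 6.77) for JMO. Adjusted p against a minimum fold of 1.5 (edgeR's glmTreat) was 2.92e-08, 5.62e-05, 0.000262, and 0.712, where 6.88%, 5.29%, 6.3%, and 2.11% of all genes were called, and against JMO cells the IR value was past that fold as well (adjusted p = 4.09e-05, 4.59% of all genes called). Of 5 skeletal muscle genes, *Myod1* and *Myf5* had 0 counts, and 1 of the 5 passed the filter. The summed level of the 5 was low but not 0, at 0.800 to 1.01 CPM in DKO and 0.439 to 0.943 CPM in IR basal libraries.

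The ubiquitous partner *Cox6a1* was at 106, 111, and 114 CPM in DKO and 137, 123, and 118 CPM in IR basal libraries. Per transcript length, its mean level over all libraries was 204 CPM per kilobase, against 1.2 CPM per kilobase for *Cox6a2*. *Cox6a1* rose by 0.19 in IR and 0.23 in ∆CT cells (adjusted p = 0.00672 and 0.00211, edgeR) and was at 0.08 and 0.01 in K1030R and JMO cells. *Cox7a1* and *Cox8b*, which differentiated brown and muscle cells use, stayed under the filter: *Cox7a1* was at no more than 0.574 CPM in any library, and *Cox8b* had 2 counts in all 26 libraries. *Cox4i2*, an isoform of lung and of oxygen sensing, had between 0 and 3 counts in each group. Of their partners, *Cox7a2* was higher than in DKO cells in ∆CT cells (0.11, adjusted p = 0.00971) and within 0.07 of DKO cells, on the log2 scale and not past the threshold, in the other lines. *Ndufa4l2* (ENSMUSG00000040280, chromosome 10, 127514967 to 127517154), a hypoxia-induced paralog of *Ndufa4*, counted under complex I by its symbol, had 10 counts in DKO cells and, with receptor and without insulin, 53 (IR), 15 (K1030R), 25 (∆CT), and 26 (JMO). The IR libraries, at 0.811, 1.03, and 0.741 CPM, lay above all other basal libraries, and the ratio to DKO cells was 5.21 (2.62 to 11.5). *Ndufa4l2* exceeded 0.5 CPM in 9 libraries, 6 of them the IR libraries, and so passed the filter mainly through the line in which it was high. Its level in IR cells is given as a description for that reason. *Cox6a2* and *Ndufa4l2* were the 2 members past that fold in any of the 15 comparisons of groups by edgeR, and DESeq2 placed *Cox6a2* but not *Ndufa4l2* past it. Without them 44 members were higher and 3 lower in the contrast of IR, K1030R, and ∆CT with DKO and JMO cells.

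**Figure D3:**
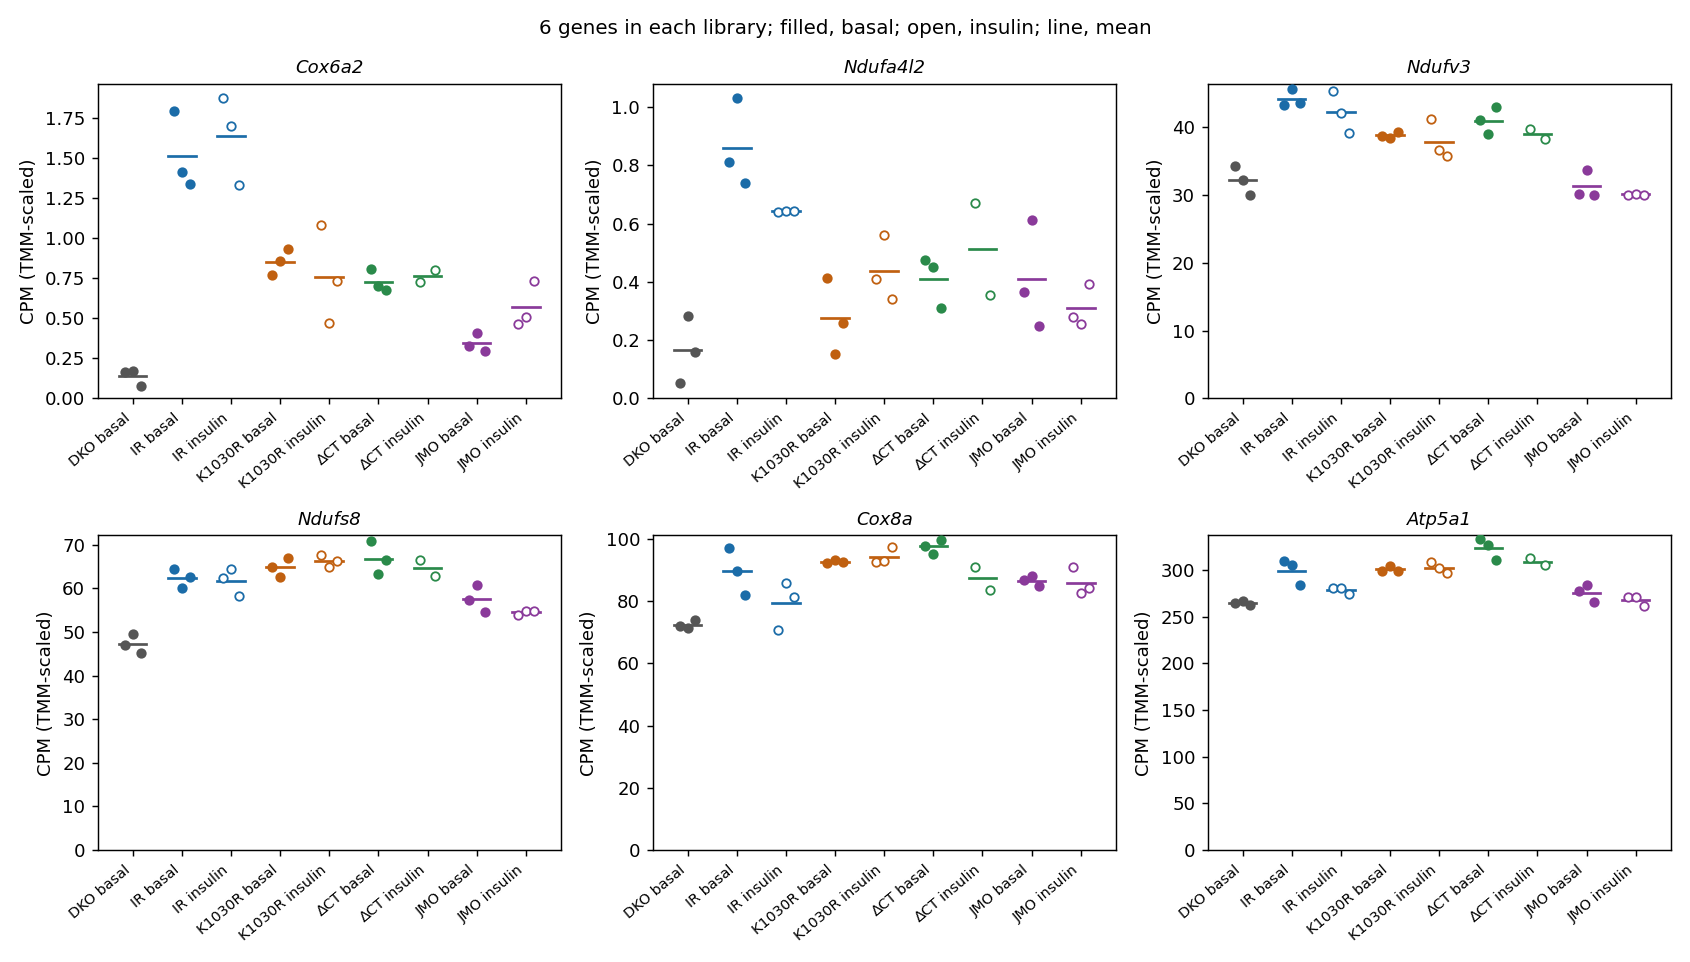
TMM-scaled CPM of *Cox6a2*, *Ndufa4l2*, *Ndufv3*, *Ndufs8*, *Cox8a*, and *Atp5a1* in each of 26 libraries, on axes that start at 0. Filled points are basal and open points insulin-treated libraries, and lines are group means. *Cox6a2* is at 1.33 CPM or more in IR libraries and at 0.171 CPM or less in DKO libraries.

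In ATP synthase, 9 of 17 members were higher and 0 lower in the contrast of IR, K1030R, and ∆CT with DKO and JMO cells. In the catalytic head and central stalk, *Atp5a1* (ENSMUSG00000025428, chromosome 18, 77773729 to 77782869), the α subunit, was at 265, 266, and 263 CPM in DKO and 277, 284, and 266 CPM in JMO basal libraries. It was at 310, 305, and 284 CPM in IR, 299, 304, and 299 CPM in K1030R, and 334, 327, and 311 CPM in ∆CT basal libraries. The basal groups did not overlap, although the lowest IR library, replicate 3, lay within 1 CPM of the highest JMO library. *Atp5a1* rose by 0.19 ± 0.02 on the log2 scale in the contrast (adjusted p = 2.56e-09, edgeR). The β subunit *Atp5b*, at 1019 ± 21.8 CPM (SD, n = 3) in DKO cells, was lower in IR (940.5 ± 24.7 CPM, adjusted p = 0.00264) and higher in ∆CT cells (1109 ± 48.3 CPM, adjusted p = 0.0018), so the α and β genes, whose proteins alternate in the same ring, did not change in parallel in IR cells.

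The rotating c-ring is built of identical proteins made from 3 genes, which differ in the part that is removed on import. All 3 were higher in the contrast: *Atp5g1* by 0.20 ± 0.04 on the log2 scale, *Atp5g2* by 0.26 ± 0.10, and *Atp5g3* by 0.18 ± 0.03, with adjusted p of 4.44e-05, 0.0268, and 1.25e-06 in edgeR. The *Atp5g2* call was lost in a fit of only the groups compared (adjusted p = 0.06) and without DKO replicate 1, IR replicate 1, K1030R replicate 2, or JMO replicate 3 (0.051 to 0.0768). The most abundant, *Atp5g3*, was at 141, 139, and 141 CPM in DKO and 132, 135, and 137 CPM in JMO basal libraries, and at 158, 156, and 154 CPM in K1030R and 165, 162, and 155 CPM in ∆CT basal libraries. In IR cells it was at 161, 155, and 136 CPM, the last value again in replicate 3. *Atp5g2* varied between dishes, from 40.4 to 61.6 CPM in K1030R basal libraries, and was called in none of the 4 lines against DKO cells, although without IR basal replicate 3 it was higher in IR cells (0.46, adjusted p = 0.0184). Of the small membrane subunits around the ring, 1 of 4 was higher in the contrast, and *Atp5mpl* was lower than in DKO cells in IR (-0.21), K1030R (-0.15), and JMO cells (-0.14), with adjusted p of 0.00177, 0.0256, and 0.0437.

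Receptor lines were also compared with each other in the basal state. Between ∆CT and JMO cells, 38 members were lower in JMO and 0 higher (38.8% of all genes called, 19.3% lower), with a median log2 difference of -0.10. With library totals alone, 21 were lower and 1 higher, with a median of -0.07 beside 0.04 for all genes. Between K1030R and JMO cells, 21 were lower in JMO and 1, *Ndufa1*, higher (35.4% of all genes called, 18% lower), and between IR and JMO cells 19 were lower in JMO and 2, *Cox6b1* and *Ndufa1*, higher (42.4% of all genes called, 21.8% lower). The split between IR and JMO cells also moved with the scaling, to 18 lower and 6 higher with upper-quartile scaling and to 12 lower and 9 higher with library totals alone. Without IR basal replicate 3, 27 were lower and 1 higher in JMO than in IR cells. In the insulin-treated libraries 10 members were lower and 5 higher in JMO than in IR cells (40.2% of all genes called, 19.9% higher and 20.3% lower), with *Cox6a2* (-1.53), *Ndufa4l2* (-1.05), and *Ndufv3* (-0.49) lowest.

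Lines that kept the intracellular kinase region were compared as well. ∆CT and kinase-dead K1030R cells differed in 3 members, *Atp5b*, *Atp5j2*, and *Cox7b*, all higher in ∆CT cells by 0.13 to 0.15 on the log2 scale (3.43% of all genes called, 1.49% higher and 1.94% lower). This count ran from 0 to 6 as single libraries were left out: it was 0 without K1030R replicate 2, ∆CT replicate 1, or ∆CT replicate 2, and 1 and 6 without K1030R replicate 1 and ∆CT replicate 3. K1030R and IR cells differed in 13 members, 7 higher and 6 lower in K1030R (30.2% of all genes called, 13.9% higher and 16.3% lower), and the split became 3 higher and 15 lower without IR basal replicate 3. Library totals alone gave 10 higher and 4 lower. ∆CT and IR cells differed in 27 members, 23 higher and 4 lower in ∆CT (26.1% of all genes called, 11.2% higher and 14.8% lower). Without IR basal replicate 3 there were 9 higher and 8 lower, and without ∆CT replicate 1 or 2 the count was 15 or 13, so the order of IR among these lines rested on single libraries.

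Other gene groups gave a scale for these values. In the contrast of IR, K1030R, and ∆CT with DKO and JMO cells, 62 of 83 cytosolic ribosomal protein genes were higher and 1 lower, with a median log2 difference of 0.10, close to the 0.09 of the members. These groups also followed each other by library, with IR basal replicate 3 low in both and ∆CT basal replicates 1 and 2 high in both. The symbol rule for that list also takes 9 S6 kinase genes, which were left out of these counts; with them 68 of 92 were higher and 2 lower. Of 78 mitochondrial ribosomal protein genes, 22 were higher and 7 lower (median 0.03), beside 26.7% and 25.6% of all genes. *Mrpl34* and *Mrps6* were highest at 0.32 and 0.32. In IR against DKO cells 10 genes of this list were higher and 15 lower, beside 25.6% and 24.1% of all genes. The median of the list by library was below 0 in all 6 IR libraries. Members and ribosomal protein genes both have short transcripts, and 258 of 720 coding genes with a transcript of at most 1000 bases were higher and 96 lower in the same contrast (median 0.08). Of the 32 members with a longer transcript, 21 were higher and 0 lower (median 0.11), and of the 48 shorter ones 25 were higher and 3 lower (median 0.09). Whether transcript length or a process shared with ribosomal protein genes has a part in the members' differences was not tested.

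Within mitochondria, the 13 subunits encoded by mitochondrial DNA included 4 that were higher and 0 lower in the same contrast, with the cytochrome b gene *mt-Cytb* at 0.19 ± 0.03 on the log2 scale and *mt-Nd2* at 0.13 ± 0.04 (adjusted p = 5.57e-06 and 0.00521, edgeR). Of all genes, 26.7% were called higher and 25.6% lower in this contrast. Of 51 assembly factors, 14 were higher and 6 lower. *Cox20*, a chaperone of a core subunit of complex IV, rose from 3.81 ± 0.483 CPM (SD, n = 3) in DKO to 6.77 ± 0.585 CPM in ∆CT cells. *Lyrm7*, which acts in the maturation of the Rieske protein, was at 0.48 ± 0.12 in the contrast (adjusted p = 0.00142, edgeR). Of 20 genes for electron carriers and ubiquinone synthesis, 5 were higher and 5 lower, and *Sqor*, which passes electrons from sulfide to ubiquinone, fell by 0.77 ± 0.04 on the log2 scale, with 20.9 CPM in DKO and 23.4 CPM in JMO against 12.7 CPM in IR cells. *Coq10b* fell by 0.60 on the log2 scale. Of 14 tricarboxylic acid cycle genes outside complex II, 7 were higher and 2 lower. *Idh2*, the mitochondrial NADP-dependent isocitrate dehydrogenase, was at 105 ± 1.33 CPM in DKO and 104 ± 2.05 CPM in JMO cells and at 157 ± 5.29, 146 ± 4.17, and 150 ± 2.64 CPM in IR, K1030R, and ∆CT cells, a larger step than in any member but *Cox6a2* and *Ndufa4l2*. *Fh1*, fumarase, was at 0.24 ± 0.03 (adjusted p = 1.1e-07).

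Of 15 genes that control mitochondrial biogenesis, 4 were higher and 4 lower in the same contrast, beside 26.7% and 25.6% of all genes. The coactivator *Ppargc1a* was higher than in DKO cells in all 4 receptor lines, by 1.09 with IR, 0.66 with K1030R, 0.67 with ∆CT, and 0.80 with JMO (adjusted p from 3.5e-11 to 3.98e-06, edgeR). Its basal mean was highest in IR cells, at 12.4 ± 0.867 CPM, and 9.25 ± 0.735 CPM in ∆CT cells. Its relative *Ppargc1b* was lower in the contrast (-0.70 ± 0.18, adjusted p = 0.00147), at 1.47 ± 0.258 CPM in DKO and 0.494 ± 0.135 CPM in ∆CT cells. *Nrf1*, the factor whose letters were counted in the promoters, was at -0.05 ± 0.03 in the contrast (adjusted p = 0.244) and lower than in DKO cells in ∆CT (-0.17, adjusted p = 0.00614) and JMO cells (-0.15, adjusted p = 0.0186).

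**Figure D4:**
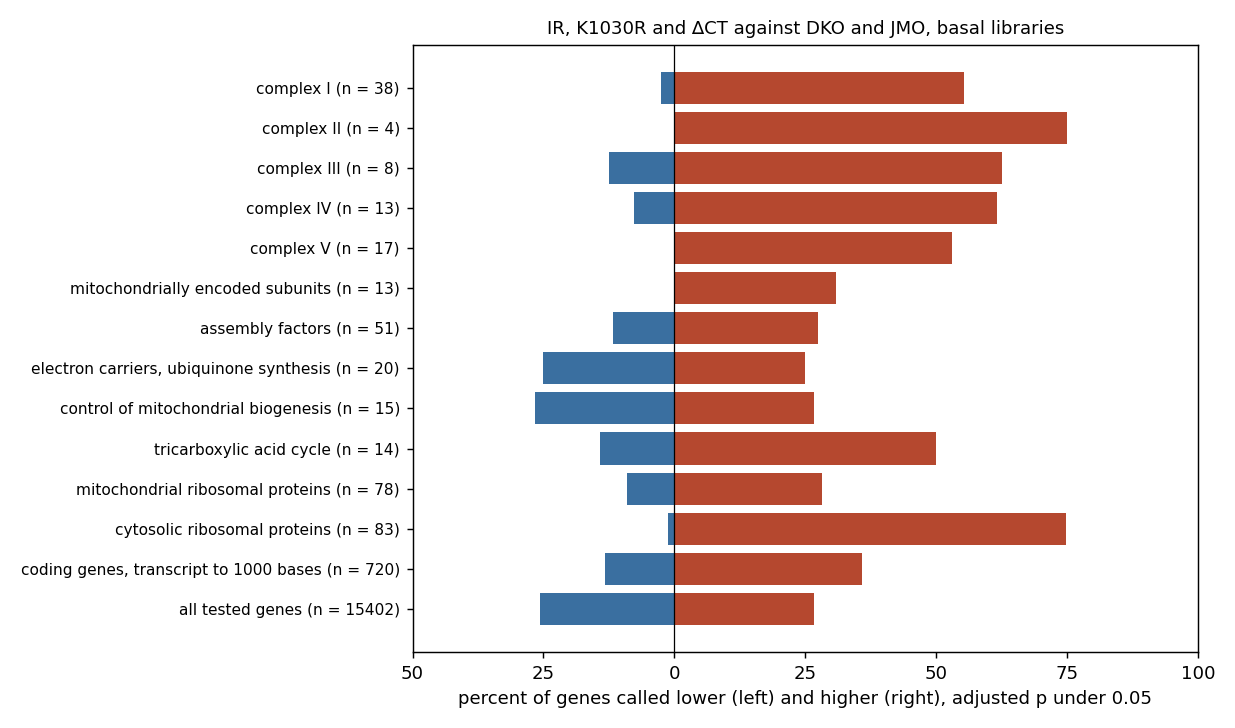
Percent of the genes of each group called lower (left bars) and higher (right bars) in the contrast of IR, K1030R, and ∆CT with DKO and JMO, basal libraries. For the members the right bars exceed the left in all 5 complexes, and 62 of 83 cytosolic ribosomal protein genes were higher, whereas all tested genes split into 26.7% higher and 25.6% lower.

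Insulin for 15 min changed few members. In IR cells 1 member was lower and 0 higher, where 1.87% of all genes were called (1.4% higher and 0.474% lower). The gene was *Atp5d*, the δ subunit of the ATP synthase central stalk, at 133, 123, and 109 CPM in basal and 95.2, 109, and 104 CPM in insulin-treated IR libraries, with basal replicate 3 within the range of the treated libraries. It fell by 0.24 ± 0.06 on the log2 scale (adjusted p = 0.0272, edgeR). DESeq2 called 3 members and limma 1. The fold change was negative for 67 of the 80 members, with a median of -0.07, and 25 members had an unadjusted p under 0.05, as did 14.7% of all genes.

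This result rested on IR basal replicate 3. That library was singled out partly by the low level of the members themselves in it. The values without it are thus a description and not a separate test. Without it, 19 members were lower with insulin and 0 higher, where 6.91% of all genes were called, and the median was -0.11. Among the 19 were *Atp5d* (-0.32, adjusted p = 0.000152), *Atp5g3* (-0.21, adjusted p = 0.000752), *Cox8a* (-0.24, adjusted p = 0.00556), *Cox6a1* (-0.25, adjusted p = 0.0156), *Cox4i1* (-0.15, adjusted p = 0.0139), and *Atp5a1* (-0.14, adjusted p = 0.00671). Without insulin-treated IR replicate 2 the count was 9, and without any other IR library it was 0.

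In the other lines 0 members were called in K1030R (0.156% of all genes called, 0.11% higher), 0 in ∆CT (1.01% of all genes called, 0.935% higher), and 0 in JMO cells (0.364% of all genes called, 0.331% higher). DESeq2 and limma also called 0 in each. By edgeR, 2, 19, and 0 members had an unadjusted p under 0.05, as did 6.09%, 9.59%, and 7.01% of all genes. In ∆CT cells 72 of the 80 fold changes were negative, with a median of -0.07, and in K1030R cells 26 were negative, with a median of 0.01. In JMO cells 60 were negative, with a median of -0.02. The medians over all genes were -0.013 in ∆CT, 0 in K1030R, and -0.001 in JMO cells. The cytosolic ribosomal protein genes had insulin medians of -0.07 with IR, 0.03 with K1030R, -0.10 with ∆CT, and -0.02 with JMO.

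The insulin effect was compared between lines as a difference of differences, and 0 members differed from IR cells in K1030R, ∆CT, or JMO cells by edgeR, DESeq2, or limma. Of all genes, 0.37%, 0.00649%, and 0.279% were called by edgeR. By edgeR, 19, 3, and 8 members had an unadjusted p under 0.05, as did 7.86%, 3.67%, and 6.49% of all genes. Fits without IR basal replicate 3 are again a description only. In them 5 members differed between K1030R and IR cells and 2 between JMO and IR cells, with 6 genes in all. *Atp5d* was in both sets, with a difference of 0.35 in K1030R (adjusted p = 0.00432) and 0.29 in JMO cells (adjusted p = 0.0363), where 1.18% and 0.662% of all genes were called. Without a filter on low counts and with all libraries, 5 members differed, and without insulin-treated IR replicate 2 the count was 1, so the test of the difference between lines depended on these choices.

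**Figure D5:**
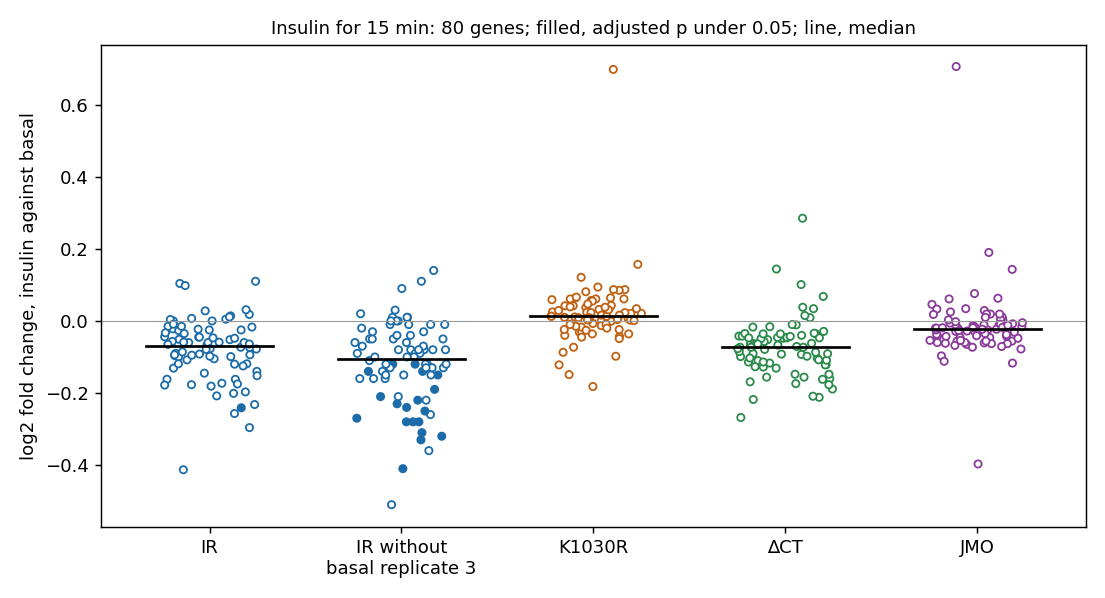
Log2 fold change of the 80 members after 15 min of insulin against the basal state in each line, and in IR cells also without basal replicate 3. Points are genes, filled where adjusted p was under 0.05, and lines are medians, at -0.07 for IR, -0.11 without the library, 0.01 for K1030R, -0.07 for ∆CT, and -0.02 for JMO. Filled points number 1 in IR with all libraries and 19 without basal replicate 3.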

How the data were processed

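Polyadenylated RNA of 26 libraries in 9 groups was captured with oligo-dT and sequenced as stranded single-end reads. Per the labels and the study's methods, the authors trimmed reads with fastp and quantified Ensembl 98 transcripts of the mouse by kallisto, and tximport then gave gene totals. The values used are the authors' expected counts per gene as deposited, without filter or scaling. They cover mouse transcripts, and reads that fit several transcripts are split, so copies such as *Ndufb4c* and *Cox6c2* are uncertain. No strand setting of the counting is given in the sources used here.

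Counts were rounded. Genes above 0.5 CPM in at least 4 libraries were kept, the threshold of the study's methods, with TMM scaling (edgeR 4.0.16, R 4.3.3). All 26 libraries entered edgeR's robust quasi-likelihood fit, in which each group has its own mean, and glmTreat tested the minimum fold of 1.5. A gene was called at an adjusted p under 0.05. The study used limma TREAT, and limma 3.58.1 and DESeq2 1.42.0 were run as alternatives. CPM are TMM-scaled. The biological coefficient of variation was 4.44%, and same-group dishes spread beyond counting error (chi-square per degree of freedom 2.83 to 22.5 over 25 pairs). Counting intervals cover counting error only. Symbols and gene coordinates are those of GENCODE M21 on GRCm38, and 15193 of 15402 tested genes had a symbol. Symbols of that release left out subunits with other names. The same function was tested on simulated data.

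The genes with full values were chosen by a rule: members past the minimum fold, the 3 with the largest difference in complexes I, III, IV, and V in the contrast of IR, K1030R, and ∆CT with DKO and JMO cells, complex II, the tissue isoforms and their partners, the c-ring, called insulin genes, and at most 2 genes per other list. Other genes are named where a count, a separation, or the promoter letters rest on them, after their values were seen. Members, lists, and alternatives were chosen with earlier results of these data known. The alternatives were RLE, upper-quartile, and unscaled libraries, other filters, unrounded counts, other tools and thresholds, the compared groups alone, a replicate block, and each library left out in turn. Values of some single genes are not reported here.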

Additional observations from a re-analysis of the deposited data

How the results depend on the processing

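Under the alternatives, most of which left out 1 library, 590 of 645 counts of called members stayed within 1.5 times. The 590 include counts of 0 that stayed at 0, such as all 36 for insulin in K1030R cells. Many of the libraries left out were not in the groups compared. Of the values of named genes, 2332 of 2447 kept their direction and their side of the threshold. These 2 tallies leave out upper-quartile scaling and library totals alone. Library totals alone moved some counts further, as from 38 lower to 21 lower and 1 higher for JMO against ∆CT. Under RLE, upper-quartile, and unscaled settings, 40 of 45 medians of the members moved by less than the spread between dishes. Among the 72 calls of named genes that were followed, 0 changed sign, and the other called members were not followed singly. The insulin median in JMO cells turned from -0.02 to 0.02 with library totals alone, which also gave 0 calls for ∆CT against K1030R and for insulin in IR, and that of K1030R against IR turned from 0.03 to -0.01 without IR basal replicate 3. With a minimum fold of 1.5 the counts fell to 2 for IR against DKO, 1 each for K1030R and ∆CT against DKO, 1 for JMO against IR (basal and insulin libraries), 1 for the contrast of IR, K1030R, and ∆CT with DKO and JMO, and 0 for JMO against DKO, K1030R or ∆CT, for K1030R and ∆CT against IR, for ∆CT against K1030R, and for insulin in IR. At an adjusted p under 0.01 they were 24 for K1030R and 7 for JMO against DKO, 4 for K1030R, 12 for ∆CT, and 11 for JMO against IR, 0 for ∆CT against K1030R, 22 for JMO against ∆CT, and 0 for insulin in IR. DESeq2 gave 11 for JMO against DKO, 8 for K1030R against IR, 3 for insulin in IR, and 1 member past 1.5-fold, and a minimum fold of 1.2 gave 5. A fit of only the groups compared gave 12 for ∆CT against IR, 0 for ∆CT against K1030R, and 0 for insulin in IR. Without a filter, insulin gave 11 in IR, 2 in ∆CT, and 1 in JMO, and 5 insulin effects differed between lines.

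Leaving out single libraries gave 27 to 45 calls for IR, 29 to 40 for K1030R, 39 to 53 for ∆CT, and 10 to 22 for JMO against DKO, 7 to 18 for K1030R, 13 to 29 for ∆CT, and 14 to 28 for JMO against IR, 0 to 6 for ∆CT against K1030R, 16 to 22 for JMO against K1030R, 26 to 43 for JMO against ∆CT, and 41 to 54 for the contrast. For insulin it gave 0 to 19 in IR, 0 in K1030R, 0 to 1 in ∆CT (1 without ∆CT basal replicate 3), 0 in JMO, and 0 to 6 for differences between lines (6 without IR basal replicate 3, 1 without IR insulin replicate 2). A lone ∆CT insulin sample was assumed to vary like the other groups. The causes were not tested.

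Replicate numbers did not pair the samples (median correlation of deviations 0.00736 over 100 same-numbered pairs, 6 above 0.1). With a replicate block, insulin gave 3 calls in IR and 1 in ∆CT. Low genes such as *Cox6a2* rest on few counts, and single lines per receptor limit what a difference between lines shows.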
